A study of Mus musculus with 2 samples.

Results

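The loci described here are those of 10 integrin genes that leukocytes use for adhesion and homing: the alpha chain genes Itgal, Itga4, Itga6, Itgae, Itgam, Itgax and Itgav, and the beta chain genes Itgb1, Itgb2 and Itgb7. The genes were chosen by name, 10 of the 21827 protein-coding genes of GENCODE M21. Each locus spans the gene with a flank of 25 kb at both ends on the mouse mm10 build. Open chromatin was measured by DNase-seq, in which the nuclease DNase I cuts accessible DNA in nuclei and the cut ends are sequenced. The material was primary T cells, labelled CD8-positive naive resting alpha-beta, from male, virgin B6CASTF1/J mice (adult, 2 months old), a hybrid mouse strain. There was 1 group, with no treatment and no control group, and it held 2 libraries that the labels number as biological replicates 2 and 3, both technical replicate 1. The libraries share a donor label but differ in their biosample label, and the labels do not say if separate mice were used. With 1 group no comparison between conditions could be tested, and the values below describe these libraries.

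Integrins are heterodimers of an alpha and a beta chain that bind ligands on other cells or in the extracellular matrix, and in lymphocytes they are switched from a weakly to a strongly binding form by signals from inside the cell. On T cells the Itgal and Itgb2 products form LFA-1, the receptor for ICAM proteins on endothelium and antigen-presenting cells. The Itga4 product pairs with that of Itgb1 to bind VCAM1 or with that of Itgb7 to bind MADCAM1 in gut venules, and the Itgae product pairs with that of Itgb7 to bind E-cadherin on epithelium. The Itgam and Itgax products pair with the Itgb2 chain and are best known as the Mac-1 and CD11c chains of myeloid cells.

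Each library came with a shorter and a longer list of peaks, a list of footprints and a list of false discovery rates (FDR) per stretch of bases. The lowest deposited FDR under a peak never exceeded 0.001 in the shorter lists or 0.05 in the longer ones, so they are called stricter and permissive. The stricter list held 38223 peaks in replicate 2 and 17061 in replicate 3, and the footprint list 146244 and 29967 intervals. The signal of a peak is the authors' value, whose scale the labels do not state. All stricter signals below 2 were whole multiples of 1 step within 0.05 of it, a step of 0.00746 in replicate 2 and of 0.0452 in replicate 3, 6.05 times larger. Read totals are not part of the labels or files. Replicate 3 listed fewer peaks throughout, so a site found in replicate 2 alone cannot be told apart from one below detection in replicate 3. Of 9 T cell marker genes, 8 had a stricter promoter peak in replicate 2 and 1 in replicate 3, and the permissive lists of both held 4. The gene without a stricter promoter peak in either library was Cd8a, with 1.18 in the permissive list of replicate 2 alone. Of 6 B cell marker genes, 0 had a promoter peak in a stricter list, and of 8 myeloid marker genes 1 did, Cebpa. The permissive list of replicate 2 also held Ebf1 of the B cell genes and Lyz2 of the myeloid genes, with 0.410 and 0.328. Of 4 NK cell and 4 erythroid marker genes, 1 each had a stricter promoter peak in replicate 2 and 0 in replicate 3, Klrd1 and Epor. The permissive lists of both libraries held 2 of the 4 NK cell genes, Klrd1 and Eomes, and that of replicate 3 held Klf1 of the erythroid genes. Beside these counts, a stricter promoter peak was present for 50.5% of all protein-coding genes in replicate 2 and for 40.9% in replicate 3. The permissive lists of both held 45.5% of all genes, so the T cell and NK cell shares in them were near that of all genes.

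The promoter sequences that carry the results below are those of Itga4, Itgav and Itgal, 3 of the 4 genes with a stricter promoter peak in both libraries. They are the mm10 reference sequence (GRCm38.p6, RefSeq assembly) of the replicate 2 peak, 5′ to 3′ on the strand of the gene, in lower case with the bases inside a replicate 2 footprint in capitals. Footprints are short stretches inside open chromatin that are protected from cutting. The bases of annotated untranslated exons were left out, so the Itgav and Itgal lines end where the gene begins, after 116 of 280 and 159 of 320 bases of the peak. The mice were a hybrid, so 1 of the parental alleles can differ from these letters.

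Itga4 promoter (chr2:79255201-79255400, plus strand): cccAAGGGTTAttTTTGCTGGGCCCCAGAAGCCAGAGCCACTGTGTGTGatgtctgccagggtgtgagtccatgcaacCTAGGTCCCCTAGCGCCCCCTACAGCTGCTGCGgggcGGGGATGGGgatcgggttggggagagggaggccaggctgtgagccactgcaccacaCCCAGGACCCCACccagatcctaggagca

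Itgav promoter (chr2:83724281-83724396, plus strand): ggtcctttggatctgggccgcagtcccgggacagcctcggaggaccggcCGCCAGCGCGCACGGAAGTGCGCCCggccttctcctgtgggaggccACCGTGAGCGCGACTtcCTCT

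Itgal promoter (chr7:127296101-127296259, plus strand): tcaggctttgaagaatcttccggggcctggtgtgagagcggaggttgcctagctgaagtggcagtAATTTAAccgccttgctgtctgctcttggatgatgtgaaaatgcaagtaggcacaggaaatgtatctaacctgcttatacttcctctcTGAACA

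Promoter windows reached 1000 bp to each side of every protein-coding start site. Among the 10 integrin genes 4 had a stricter peak in this window in both libraries, beside 40.9% of all 21827 protein-coding genes. Counted per library, 8 of the 10 had one in replicate 2, beside 50.5% of all genes, and 4 of 10 in replicate 3, beside 40.9% of all genes. The permissive lists of both libraries gave 6 of 10, beside 45.5% of all genes. The members' share with a peak in both libraries was therefore near that of all genes, and the share in replicate 2 was above it.

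Itga4, the alpha chain of the VCAM1 and MADCAM1 receptors, had the strongest promoter peak of the 10 genes. Its signal was 5.38 in replicate 2 and 6.69 in replicate 3, above 90.5% and 87.3% of the peaks of each library. Over all genes with a stricter promoter peak the median signal was 3.75 in replicate 2 and 4.65 in replicate 3, and Itga4 was the single integrin gene of the 10 above both medians. The Itga4 peak spanned the same 200 bases in both lists, just upstream of the annotated gene, and 2 weaker peaks flanked it in replicate 2, with signals of 1.28 and 1.25.

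Itgav, the alpha chain of receptors for vitronectin and other matrix proteins, had the next strongest promoter peak, with 2.65 in replicate 2 and 3.39 in replicate 3. Itga6, the alpha chain of laminin receptors, had 1.69 and 2.12. Itgal, the LFA-1 alpha chain, had 1.69 and 1.85. Itgal, Itga6 and Itgav thus lay below the median promoter peak in both libraries. In replicate 3 the Itgal peak (chr7:127296137-127296207) was narrow, inside the 320 bases of the replicate 2 peak, and ranked above 23.1% of the peaks of that library.

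The 3 beta chain genes had lower promoter signals in replicate 2 than these 4 alpha chain genes. Itgb2, the chain shared by LFA-1 and the myeloid integrins, had a stricter peak of 1.57 in replicate 2 and a permissive one of 2.17 in replicate 3. The latter was above the replicate 3 values of Itga6 and Itgal, 2.12 and 1.85, so the order did not hold in that library. Itgb1, the partner of many alpha chains, had stricter peaks in replicate 2 of up to 0.955 and a permissive one of 0.723 in replicate 3. Itgb7, the beta chain of the gut-homing and E-cadherin receptors, had a stricter peak of 1.14 in replicate 2 and no promoter peak in either list of replicate 3. All 3 beta chain promoters were therefore on the stricter list of replicate 2 and none on that of replicate 3.

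Itgam, the Mac-1 alpha chain, had a weak promoter peak of 0.657 in replicate 2 and none in replicate 3. That peak lay over the start of Itgam, where the annotation also places the gene Gm49368, so it cannot be assigned to 1 of them. Itgax, the CD11c chain, and Itgae, the alpha chain of the E-cadherin receptor, had no promoter peak in either list of either library. In signal steps the promoter peaks of the 8 genes with one held 88 steps (Itgam) to 721 (Itga4) in replicate 2. In replicate 3 those of 6 genes held 16 (Itgb1, permissive) to 148 (Itga4), so the values of replicate 3 are the coarser ones.

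**Figure D1:**
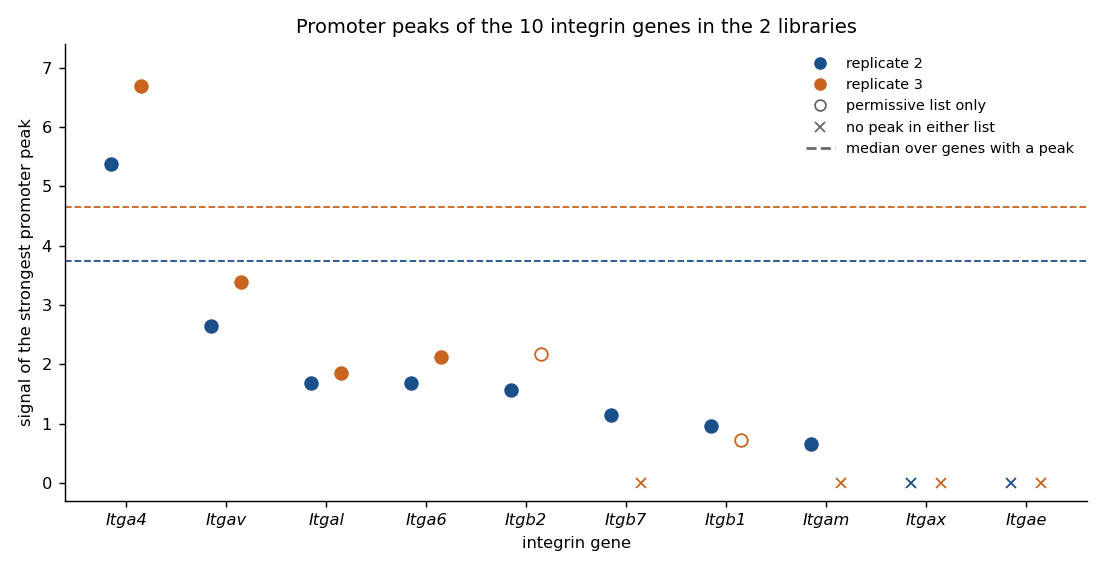
Signal of the strongest peak within 1000 bp of a protein-coding start site (vertical axis, the authors' unit) for the 10 integrin genes in replicate 2 (blue) and replicate 3 (orange). Filled points are stricter peaks, open points peaks of the permissive list alone and crosses genes with no peak; dashed lines are medians over all genes with a stricter promoter peak, and only the Itga4 points, 5.38 and 6.69, lie above them.

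In the deposited FDR lists Itga4 and Itgav also had the lowest values of the 10 genes in both libraries. The lowest FDR in the promoter window was 3.30e-32 in replicate 2 and 1.06e-13 in replicate 3 at Itga4, and 6.12e-29 and 1.23e-18 at Itgav. At Itgal it was 1.44e-17 and 0.000180. At Itga6 it was 1.97e-15 and 1.60e-07. The beta chain promoters had higher values in replicate 3, with 4.77e-14 and 0.0118 at Itgb1 and 3.40e-12 and 0.00222 at Itgb2. At Itgb7 it was 0.000130 and at Itgam 7.03e-05 in replicate 2, and no base was listed there in replicate 3. No base of the Itgae or Itgax window was listed in either library. The FDR list ends at 0.05, the bound of the permissive peaks, so this absence is not separate from that of the peaks. It cannot tell closed chromatin from signal just below the cutoff.

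The number of CpG dinucleotides split the promoters into groups that followed the signal only in part. In the 1001 bp centred on the first start site Itgb1 had 103 CpGs and Itga6 and Itgav 93 each, against a median of 43 over all protein-coding genes. Itga4, with the strongest peak, had 42. The other genes had few: Itgal 20, Itgb2 17, Itgax 15, Itgam 13, and Itgae and Itgb7 11 each. Among these CpG-poor genes Itgal alone had a stricter promoter peak in both libraries, and Itgae and Itgax had no promoter peak. In replicate 2 the CpG-rich Itgb1 had a lower promoter signal, 0.955, than the CpG-poor Itgb7, Itgb2 and Itgal, with 1.14, 1.57 and 1.69. The 3 CpG-rich promoters had stretches of FDR up to 0.05 over 1267 bp (Itga6), 1300 bp (Itgb1) and 1312 bp (Itgav) in replicate 2, and that of Itga4 over 1485 bp. Itgal had 902 bp, over the windows of 5 start sites, and Itgb2, Itgb7 and Itgam 469, 365 and 249 bp. The Itgb1 promoter was thus open over a wide stretch at a low signal, as 2 peaks of 0.768 and 0.955.

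Over the 10 loci the stricter lists gave 58 regions, a region being overlapping peaks merged across the libraries. Of these 21 were found in both libraries, 37 in replicate 2 alone and 0 in replicate 3 alone. At least 1 region in both libraries lay in 8 of the 10 loci, beside 63.9% of all genes' loci. The median locus of the members held 5.5 regions, 2 of them in both libraries, against 3 and 1 over all genes. The members' loci were longer, with a median of 101.7 kb against 67.4 kb, and per 100 kb they had 4.69 replicate 2 regions against 3.10. By place, 15 regions lay at promoters of the integrin genes, 14 at promoters of neighbouring genes, 15 in introns, 12 between genes and 2 in coding exons. In both libraries these numbers were 5, 8, 5, 2 and 1.

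**Figure D2:**
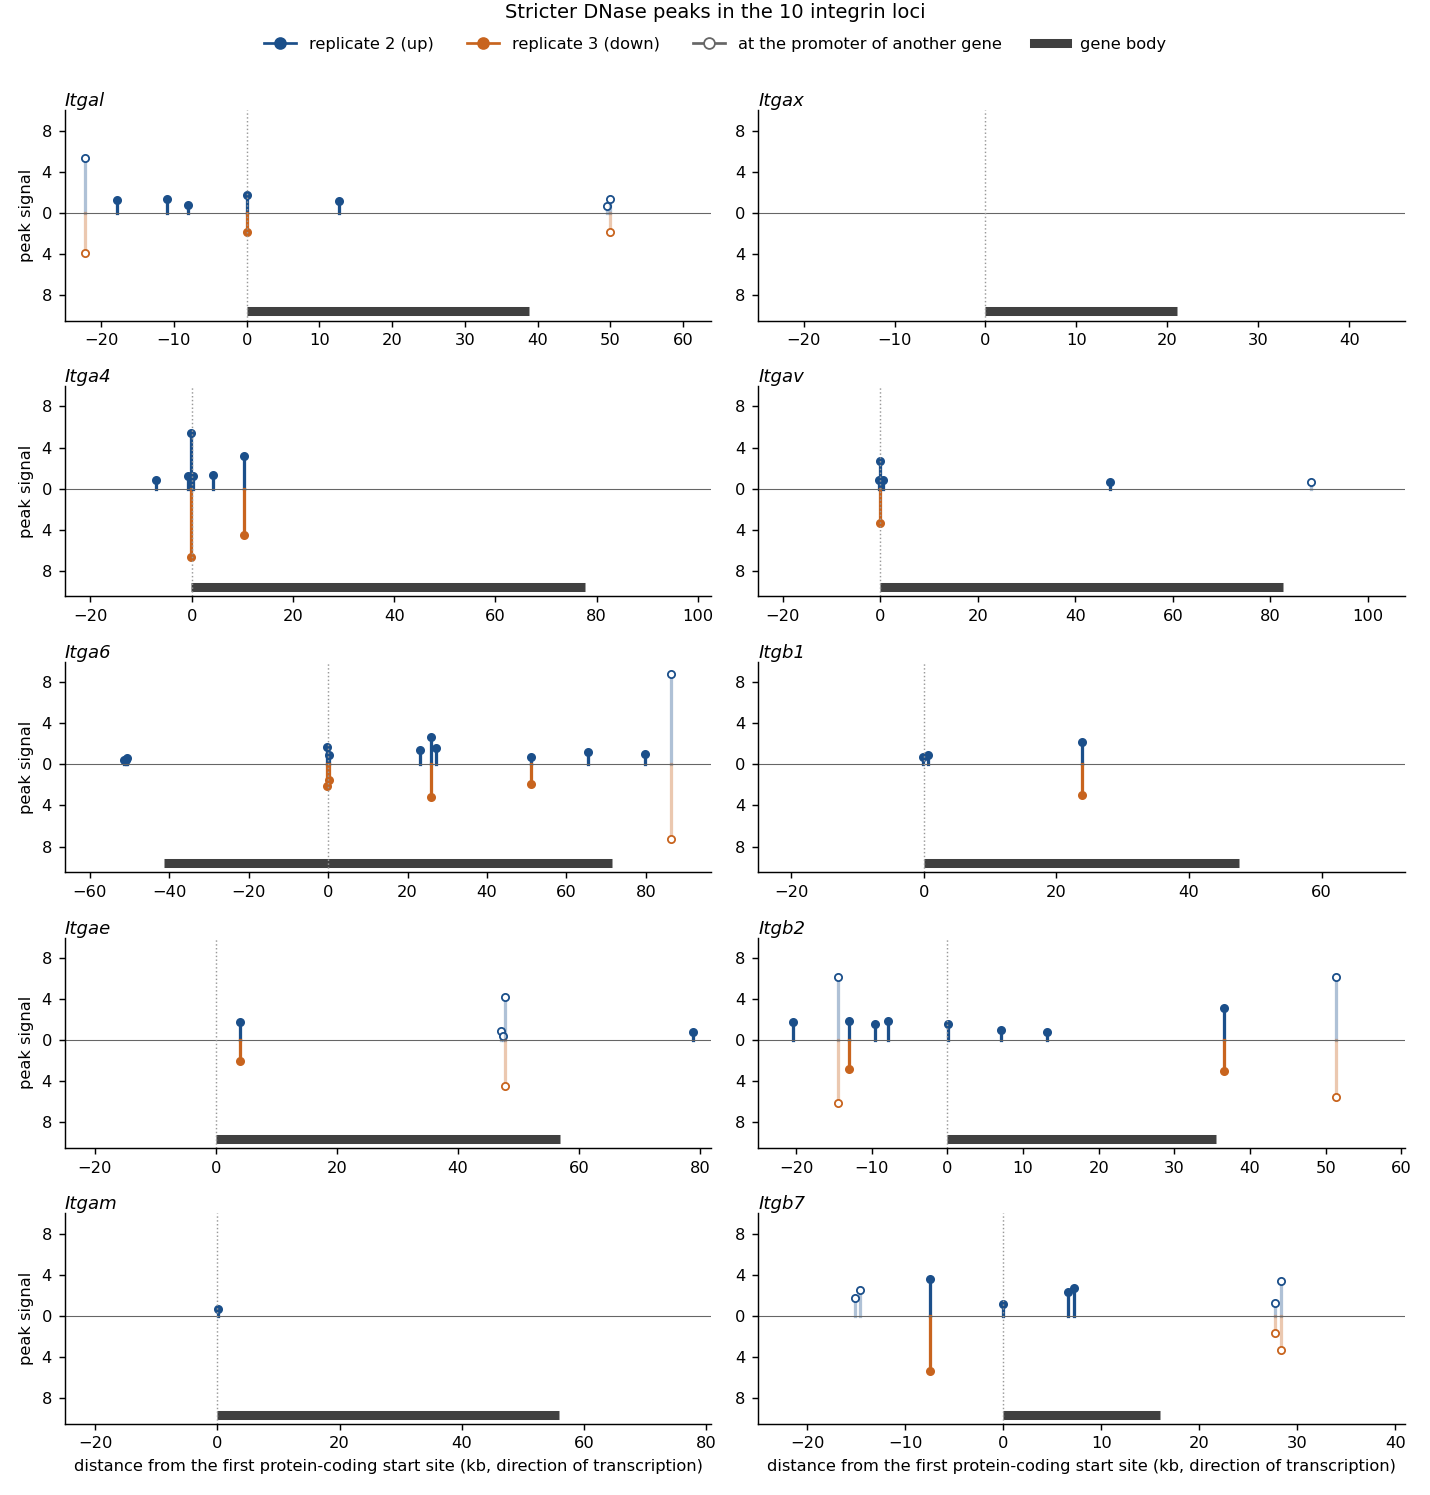
Stricter peaks in the 10 loci by distance from the first protein-coding start site (horizontal axis, kb in the direction of transcription), with the signal of replicate 2 upward and that of replicate 3 downward (authors' unit). Open points lie at promoters of other genes and the grey bar is the gene body; the Itgam locus holds 1 peak and the Itgax locus 0, while Itga6 has 12 regions.

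Itga6 had the most regions, 12, of which 5 were in both libraries, in the longest locus, 162.8 kb. The short Itgb7 and Itgb2 loci were the densest, with 12.1 and 11.7 replicate 2 regions per 100 kb, followed by Itgal with 8 regions in 88.9 kb. These counts include promoters of neighbouring genes in the flanks. Without a flank, regions in both libraries fell from 3 to 0 at Itgb7, from 4 to 0 at Itgb2 and from 3 to 1 at Itgal. Itga6 kept 4 of its 5. On the per 100 kb scale Itga4 and Itgae had 4.70 and 4.68, Itgav 3.77 and Itgb1 3.08. Itgam had 0.945 and Itgax 0. Itgam and Itgax are neighbours on chromosome 7, and their loci overlap. Itgal, which lies on the same chromosome and encodes another partner of the Itgb2 chain, had 8 regions, some of them at the Sephs2 and Zfp768 promoters. In the gene body alone, 1 region of Itgal and 0 of Itgam and Itgax were in both libraries.

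Several of the strongest peaks in these loci were at other genes. Pdk1, a kinase of pyruvate dehydrogenase, had 8.77 in replicate 2 and 7.27 in replicate 3 at its promoter downstream of Itga6. The Fam207a and Pttg1ip promoters on either side of Itgb2 had 6.15 and 6.10, and 6.19 and 5.56. Sephs2, upstream of Itgal, had 5.33 and 3.88. Haspin, which lies inside the Itgae gene body, had 4.18 and 4.43. The promoter of Zfp740 near Itgb7 had 3.42 and 3.30. In the Itgae locus the Haspin promoter was therefore the strongest region, and 1 other region was found in both libraries.

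Away from all promoters 8 regions were found in both libraries, and a further 21 in replicate 2 alone. Distances below are from the nearest protein-coding start site of the named integrin gene, negative upstream. Of the 8 in both libraries, all but the Itgb2 upstream one are printed on the strand of the gene. Replicate 2 footprints are in capitals as before, and for Itgae the narrower replicate 3 peak is shown.

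Itga4 intron (chr2:79265741-79265920, plus strand): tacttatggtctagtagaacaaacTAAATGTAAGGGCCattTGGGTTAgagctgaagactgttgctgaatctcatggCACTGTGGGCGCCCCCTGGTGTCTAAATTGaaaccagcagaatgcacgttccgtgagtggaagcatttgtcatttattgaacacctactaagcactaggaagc

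Itga6 first intronic site (chr2:71812821-71813020, plus strand): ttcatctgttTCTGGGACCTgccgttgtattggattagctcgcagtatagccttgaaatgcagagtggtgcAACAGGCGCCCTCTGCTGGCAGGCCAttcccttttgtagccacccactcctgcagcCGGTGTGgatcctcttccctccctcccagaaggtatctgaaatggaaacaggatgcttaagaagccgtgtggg

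Itga6 second intronic site (chr2:71837942-71838125, plus strand): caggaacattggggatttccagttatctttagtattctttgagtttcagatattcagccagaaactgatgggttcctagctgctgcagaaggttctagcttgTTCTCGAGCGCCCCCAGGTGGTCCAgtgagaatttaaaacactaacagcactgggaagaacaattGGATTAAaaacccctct

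Itgae intron (chr11:73094607-73094797, plus strand): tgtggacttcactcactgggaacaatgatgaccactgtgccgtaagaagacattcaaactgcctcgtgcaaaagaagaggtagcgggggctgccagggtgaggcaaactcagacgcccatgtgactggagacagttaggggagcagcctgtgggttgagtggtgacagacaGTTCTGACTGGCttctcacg

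Itgb1 intron (chr8:128709381-128709560, plus strand): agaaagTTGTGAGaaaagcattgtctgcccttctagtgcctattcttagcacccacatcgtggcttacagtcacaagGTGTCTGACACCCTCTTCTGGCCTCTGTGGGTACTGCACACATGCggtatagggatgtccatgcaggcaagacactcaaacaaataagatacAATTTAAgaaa

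Itgb2 downstream site (chr10:77566781-77566960, plus strand): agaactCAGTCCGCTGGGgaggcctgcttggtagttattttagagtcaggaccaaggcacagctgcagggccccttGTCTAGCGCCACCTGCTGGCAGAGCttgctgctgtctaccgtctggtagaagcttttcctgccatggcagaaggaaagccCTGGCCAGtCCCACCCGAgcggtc

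Itgb7 upstream site (chr15:102239321-102239480, minus strand): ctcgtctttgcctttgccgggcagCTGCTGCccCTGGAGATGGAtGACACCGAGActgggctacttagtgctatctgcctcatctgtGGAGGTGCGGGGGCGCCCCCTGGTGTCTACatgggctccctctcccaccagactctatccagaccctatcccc

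The Itga4 intron site, 10.3 kb into the gene, reached 3.18 in replicate 2 and 4.56 in replicate 3. It was the second region of this locus found in both libraries, beside the promoter, and held 3 footprints in each library. The Itga6 sites lay 25.9 kb and 51.1 kb from the start site, both in introns, with 2.69 and 3.16 at the nearer one and 0.754 and 1.94 at the farther one. The farther site ranked above 25.2% of the peaks of replicate 2 and 25.5% of those of replicate 3. At the nearer one the ranks were 75.6% and 51.9%.

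Itgae, with no promoter peak, had 1 intronic site 4.02 kb from the start site, with 1.76 in replicate 2 and 2.03 in replicate 3. Itgb1 likewise had its single region of both libraries in an intron, at 23.8 kb, with 2.16 and 2.94, above the 0.955 of its promoter in replicate 2. Apart from the Haspin promoter inside Itgae, the strongest region of each of these genes was intronic.

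Itgb2 had a site past its 3′ end, 36.6 kb from the start site, with 3.16 and 2.98, and one upstream at -13.0 kb (chr10:77517141-77517340) with 1.90 and 2.85. Both were above the 1.57 of the Itgb2 promoter in replicate 2. The Itgb7 upstream site at -7.46 kb, with 3.57 and 5.38, lay in a coding exon of the neighbouring gene Rarg, a retinoic acid receptor. Inside Itgb7, a coding exon (chr15:102224561-102224820) had 2.75 in replicate 2 and 3.07 in the permissive list of replicate 3. An adjoining intron (chr15:102225161-102225460) had 2.31 in replicate 2 and no peak in either list of replicate 3. All of these Itgb7 regions were stronger in replicate 2 than its promoter at 1.14.

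The Itgal locus had no distal region in both libraries. Upstream of the gene, replicate 2 had regions at -17.8, -10.9 and -8.12 kb with signals of 1.28, 1.39 and 0.761, and the first of them was in the permissive list of replicate 3 with 2.03. A region at an internal start site of Itgal had 1.16 in replicate 2 and 1.54 in the permissive list of replicate 3. Itgav had 1 distal region, in an intron 47.0 kb from the start, with 0.671 in replicate 2 alone.

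Of the 60 replicate 2 peaks in the loci, 21 were found in replicate 3, which is 35% (Wilson 95% interval 24.2 to 47.6%, counting error only). Over all peaks the share was 42.5%, and 42.9% when all peaks were weighted to the signal deciles of the loci's peaks, so the share of the loci did not stand apart. In the other direction all 21 replicate 3 peaks of the loci were found in replicate 2, beside 95.7% of all. In the 21 shared regions the signal was higher in replicate 3 in 15, with a median log2 ratio of 0.31 and a range of -0.46 to 1.37. Over all 15925 shared regions the median was 0.13 and 63.0% were higher in replicate 3. The lowest value in the range was at Sephs2 and the highest at the farther Itga6 intron site.

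**Figure D3:**
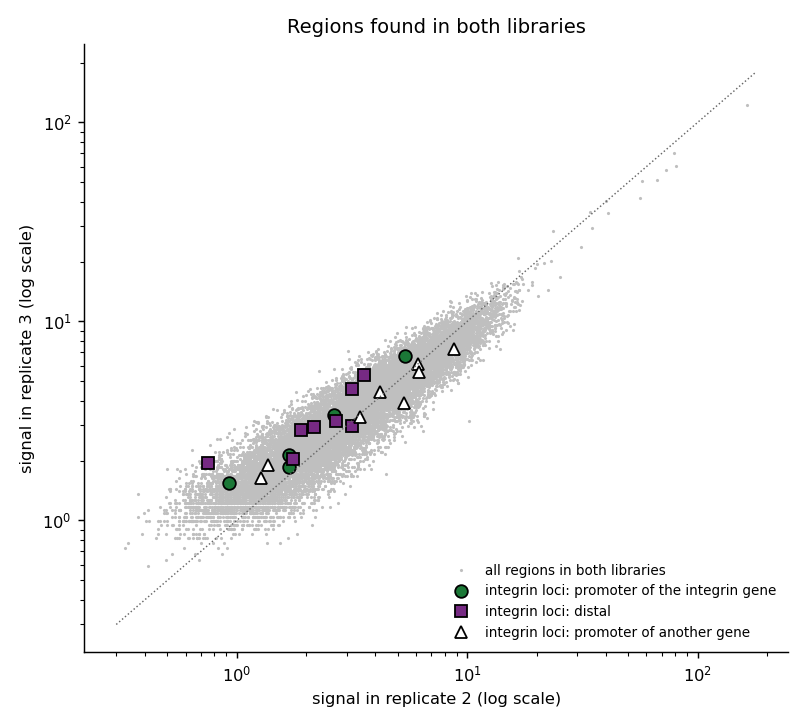
Signal in replicate 3 (vertical, log scale, authors' unit) against replicate 2 (horizontal, log scale) for the 15925 regions found in both libraries (grey), with the 21 regions of the integrin loci marked by kind. The dotted line marks equal values; 15 of the 21 lie above it.

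The loci with the most stricter regions, Itga6, Itgb2, Itgb7 and Itgal, also held the most replicate 2 footprints. Below them the order differed, as Itgae had 18 with 5 regions and Itga4 12 with 6. Replicate 2 listed 40 footprints in the Itgb2 locus, 38 in Itga6, 35 in Itgb7 and 27 in Itgal, and replicate 3 listed 7, 8, 3 and 2. Itgae had 18 and 1, Itgav 15 and 2, Itga4 12 and 5, and Itgb1 10 and 2. Itgam had 6 in replicate 2 and Itgax 4, and neither had any in replicate 3. The members' median was 16.5 in replicate 2 and 2 in replicate 3, against 10 and 2 over all genes. Itga4 had fewer than the median in replicate 2 and, after Itga6 and Itgb2, the most in replicate 3. These counts include footprints at promoters of neighbouring genes. In replicate 3 the Pdk1 promoter held 6 of the 8 in the Itga6 locus. The Fam207a and Pttg1ip promoters held 3 and 2 of the 7 in the Itgb2 locus. Both of the Itgal locus were at Sephs2 and the 1 of the Itgae locus at Haspin. Those of Itga4 lay at its own promoter, 2, and in its intron, 3. Of the 30 replicate 3 footprints in the loci, 20 overlapped one of replicate 2, 66.7% (48.8 to 80.8%), beside 66.9% of all footprints.

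At the promoters with a peak in both libraries, footprints of both libraries lay at Itga4, with 6 in replicate 2 and 2 in replicate 3 over the promoter window, and at Itgav, with 8 and 2. Itga6, whose window holds 2 regions of both libraries, had 9 and 0, and Itgal had 7 and 0. Consensus words for 14 factors or families were searched on both strands in the 200 bp centred on each region, as a description. In the Itga4 promoter the word of SP and KLF factors, GGGCGG, and a KLF GT-box word, GGGTGTG, overlapped footprints of replicate 2 only in part. Neither overlapped a footprint of replicate 3. A further GT-box word and the RUNX word TGTGGT lay outside the footprints of both libraries.

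Over the 58 regions, GGGCGG was in 20.7%, beside 30.0% of all replicate 2 peaks, the ETS word CCGGAA in 12.1% beside 13.0%, the ZEB E-box word CACCTG in 17.2% beside 18.2%, and TGTGGT in 12.1% beside 17.0%. The word of PU.1, GAGGAAGT, which contains the GGAA core shared by ETS factors, was in 6 regions, 10.3% beside 2.93%. At the promoters of the integrin genes it was in 4 of 15 regions, 26.7%, beside 2.10% of the 16360 promoter peaks of replicate 2. The genes were Itgal, Itgav, Itgb2 and Itgb7. The RUNX word was likewise in 4 of the 15, 26.7%, beside 8.03% of promoter peaks, at Itga4, Itgal, Itgam and Itgb2, and overlapped no footprint there. The KLF GT-box word was in 2 of the 15, 13.3%, beside 5.79%. GGGCGG was in 5 of the 15, 33.3%, beside 54.0%, and CCGGAA in 2, 13.3%, beside 21.6%. The PU.1 word of Itgav, at chr2:83724388-83724395, overlapped footprints of both libraries, and the other 3 overlapped none. In replicate 2 the middle bases of its GGAA core lay in a gap between footprints. Spi1, the gene of PU.1, had no promoter peak in either list of either library. Its locus, neighbouring genes in the flanks included, held 5 replicate 2 regions, 2 of them in both libraries. Which factor binds the word was not tested. PU.1 and RUNX were among the 14 words searched, no test was made, and the counts are small.

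The consensus of CTCF, the zinc finger protein found at insulators and loop anchors, was matched at up to 1 mismatch in 5 of the 8 distal regions of both libraries, 62.5% (30.6 to 86.3%). The share over all distal peaks of both libraries was 57.1%, so the loci had about the share of distal peaks in general. Among distal regions of replicate 2 alone it was 5 of 21, 23.8%, beside 34% of all such peaks, and among promoter regions in both libraries 1 of 13, beside 7.67%. The 5 matches were at the Itga4 intron, both Itga6 introns, the Itgb2 downstream site and the Itgb7 upstream site, and each overlapped a footprint in both libraries. The matches had no mismatch at the nearer Itga6 site (CCAGCAGAGGGC, chr2:71812899-71812910, minus strand) and at the Itgb2 site (CCAGCAGGTGGC, chr10:77566864-77566875, minus strand). The Itga4 and Itgb7 sites held the same bases with 1 mismatch, ACACCAGGGGGC, at chr2:79265828-79265839 on the minus strand and chr15:102239368-102239379 on the plus strand. The Itgb1 intron and the Itga4 promoter (chr2:79255293-79255304, minus strand) matched with 2 mismatches in footprints of both libraries. Matches with up to 2 mismatches were in 31.6% of all promoter peaks of both libraries. The Itgae intron had no match within 2 in the 200 bp searched. That window was centred on the wider replicate 2 peak, so it held only part of the printed Itgae sequence and not its footprint.

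**Figure D4:**
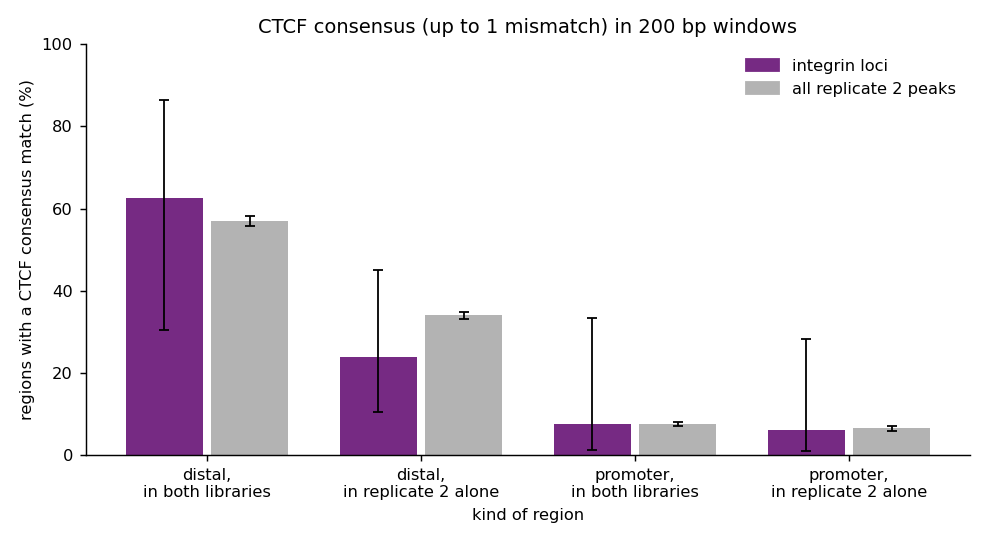
Share of regions whose central 200 bp hold the CTCF consensus with up to 1 mismatch (vertical axis, %; bars with Wilson 95% intervals) for the integrin loci (purple) and all replicate 2 peaks (grey). Distal regions of both libraries have 62.5% and 57.1%, and the intervals of the loci, from 8 to 21 regions a bar, include the share of all peaks in each of the 4 kinds.

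Of the 16 other integrin genes, 3 had a stricter promoter peak in both libraries, beside 40.9% of all genes, and 6 in replicate 2, beside 50.5%. The permissive list of replicate 2 held 8 of the 16. The 3 genes open in both libraries were Itga9 with 1.78 and 2.67, Itgb3, the platelet integrin beta chain and a partner of the Itgav chain, with 1.53 and 1.94, and Itga2, a collagen receptor chain, with 1.38 and 1.63. Each lay below the median promoter peak in both libraries, as did 3 of the 4 members with a peak in both.

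Of 12 genes for integrin ligands 2 had a stricter promoter peak in both libraries, beside 40.9% of all genes. They were Madcam1 with 1.73 and 2.35 and Cdh1, which encodes E-cadherin, with 0.970 and 1.31. In replicate 2 there were 5, beside 50.5% of all genes, and in the permissive lists of both libraries 4. Vcam1, Fn1 and Spp1 had no replicate 2 region anywhere in their loci. Icam1, an LFA-1 ligand, had 3.84 in replicate 2 and 3.57 in the permissive list of replicate 3.

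Among genes that regulate integrin activation or link integrins to the cytoskeleton, 11 of 20 had a stricter promoter peak in both libraries and 14 in replicate 2, beside 40.9% and 50.5% of all genes. Cyth1, which encodes the LFA-1 tail binder cytohesin, had 9.89 and 13.4. Stk4, which encodes the kinase MST1 of the RAPL pathway, had 10.4 and 10.8. Sharpin, an inhibitor of integrin activation, had 8.65 and 7.05, and the GTPase gene Rap1b had 7.69 and 7.23. Rasgrp1, an exchange factor acting on Ras downstream of the T cell receptor, had 5.50 and 5.24, and Rassf5, which encodes RAPL, had 6.31 and 4.74. The promoter signal of each of these 6 genes was above the median in both libraries and, apart from Rasgrp1 and Rassf5 in replicate 3, above that of Itga4. Tln1, the talin that binds beta chain tails in leukocytes, had 4.73 and 4.88. Fermt3, the kindlin of blood cells, had 2.05 in replicate 2 and 2.08 in the permissive list of replicate 3.

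**Figure D5:**
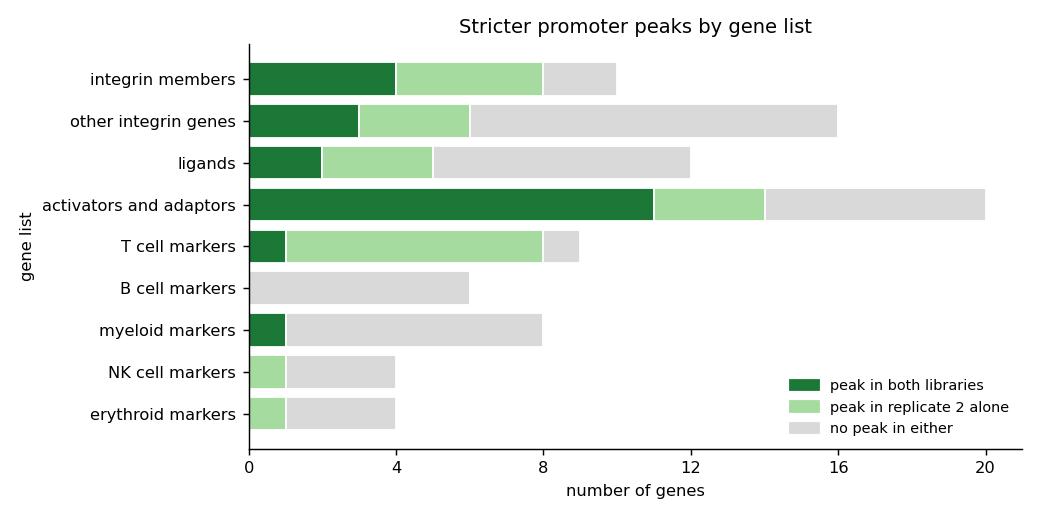
Number of genes of each list (horizontal axis) with a stricter promoter peak in both libraries (dark green), in replicate 2 alone (light green) or in neither (grey). Of the integrin genes of the loci 4 of 10 are dark, and of the activators and adaptors 11 of 20.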

How the data were processed

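DNase-seq libraries of 1 group were analysed from deposited lists on mm10, each made from 1 library's own alignments per the deposited notes. The aligner and callers: not given in the sources used here. Peaks carry the authors' signal value. The deposited FDR list holds q-values up to 0.05. Footprints carry 1 constant, so only intervals were used. The genome (GRCm38.p6) equalled 4000 of 4000 RefSeq promoter sequences at their coordinates. Regions in both libraries are overlaps of stricter peaks of 1 bp or more. Members and lists were chosen with earlier results of these data known. All 10 members were named, and of each other list up to 6 of those open at the promoter in both libraries, by mean signal rank. Vcam1, Fn1, Spp1, Icam1, Tln1, Fermt3 and Spi1, and the CTCF search, were chosen after values were seen. The sequence of 1 promoter is not reported here. Overlap and word counts were tested on simulated data. Alternatives changed the peak list, number of peaks, overlap, windows, flank and libraries. Tools were Python 3.11.15, matplotlib 3.10.9, scipy 1.17.1, pandas 2.3.3 and numpy 2.4.6. No paired analysis or test between groups was made, as there was 1 group.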

Additional observations from a re-analysis of the deposited data

How the results depend on the processing

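The number of the 10 integrin genes open at the promoter in both libraries, 4, was 6 with the permissive lists and stayed 4 with promoter windows of 500 or 2000 bp or with equal numbers of peaks. With 1 library left out it ranged from 4 to 8. Without replicate 3 the count was 8. The 21 regions in both libraries became 33 with the permissive lists, 10, 13 and 33 with flanks of 0, 10 and 50 kb, and 13 without promoters of other genes, and ranged from 21 to 58 with 1 library left out, the 58 being replicate 2 on its own. Equal numbers of peaks, or an overlap of 50% of each peak, gave 17. The share of replicate 2 peaks found in replicate 3, 35%, became 55% with the permissive list of replicate 3 and 65.4% with equal numbers of peaks. The share of footprints in the loci, 66.7%, became 40% when 50% of each had to be shared and 86.7% with a 10 kb flank. The CTCF share of distal regions, 62.5%, was 25% with no mismatch and 87.5% with up to 2, settings chosen after seeing the data. The flank and list settings change which peaks enter; other causes were not tested. Replicate 3 has fewer peaks and a signal step 6.05 times that of replicate 2; read depth was not measured here. No paired analysis was possible because there is 1 group of 2 libraries.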
